A study of Homo sapiens with 27 samples.

Results

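The experiment examined here is the knockdown of the long non-coding RNA lnc-RTN4R-1 by one antisense oligonucleotide, lnc-RTN4R-1 LNA GapmeR2. It covers 8 of the 27 RNA sequencing samples of the series, chosen by their treatment labels: 3 samples treated with GapmeR2 and 5 controls. The controls were 3 samples treated with a non-targeting control GapmeR (NTC) and 2 samples in medium alone. Both GapmeR2 and NTC were given at 10 µM, and the cells of all 3 groups were harvested after 72 h. All cells were REH, a human leukemia line of B-cell precursor type (BCP-ALL) that is long established, carries the ETV6/RUNX1 fusion gene and lacks the other copy of ETV6. No animal, donor or second cell line was included, so every value describes this line only. Replicates 1, 2 and 3 were made on different days per the methods of the study. Medium had replicates 1 and 2 only, so replicate 3 of GapmeR2 was matched by a single control. The remaining groups, used for comparison, were GapmeR1 against the same lncRNA (3 samples) and 6 groups of GapmeRs against lnc-NKX2-3-1, lnc-TIMM21-5 and lnc-ASTN1-1 (16 samples).

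A GapmeR is a short oligonucleotide with locked nucleic acid (LNA) bases at both ends and a central stretch of DNA. Where it pairs with an RNA, RNase H cuts that RNA, in the nucleus as well as in the cytoplasm, so introns of unspliced transcripts can also be bound. The GapmeRs entered the cells by gymnosis, which is passive uptake with no transfection reagent. lnc-RTN4R-1 is annotated as LINC02891 (ENSG00000249923) on the minus strand of chromosome 22, at chr22:20198729-20204918 in hg38, next to RTN4R, the gene of the Nogo receptor.

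The site of GapmeR2 was found at chr22:20198858-20198873, on the minus strand, in an exon of LINC02891. GapmeR2 is shown first, as the oligonucleotide itself. The lines after it cover lnc-RTN4R-1 and further genes, because the results below are set against these matches. Each gives the place on the transcribed strand with the longest run of bases complementary to GapmeR2. Capitals mark the longest unbroken run that is complementary to GapmeR2, lower case letters lie outside that run, and all are written 5′ to 3′ as DNA. The genes from TUT7 to DEGS1 held a run of at least 14 bases, and PPP6R2 and CD34 a run of 13.
lnc-RTN4R-1 GapmeR2: tgctgagacatctagg
LINC02891, exon: CCTAGATGTCTCAGCA
TUT7, coding exon: CCTAGATGTCTCAGCc
TENM2, intron: CCTAGATGTCTCAGCt
RTTN, intron: CCTAGATGTCTCAGtc
ZFHX3-AS1, intron: CCTAGATGTCTCAGac
GLCE, exon in an untranslated region: gtTAGATGTCTCAGCA
KLF12, intron: gaTAGATGTCTCAGCA
ITCH, intron: ctTAGATGTCTCAGCA
DEGS1, intron: gCTAGATGTCTCAGCc
PPP6R2, intron: aacAGATGTCTCAGCA
CD34, intron: atgAGATGTCTCAGCA

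The files held raw counts of uniquely mapped reads per gene, with 16028895 to 18846647 counts per sample on the strand of the transcripts. Gene assignment covered 74.0% to 76.5% of the reads, and 22042 to 22974 genes were detected per sample. The libraries of replicate 3 stood apart. Chi-square per degree of freedom between replicates of a group was 12.7 to 14.3 for the pairs with replicate 3, against 4.06 to 7.48 for the other pairs. Of the B-cell precursor markers, 11 of 12 were high enough to be tested, with a summed level of 6090 to 6490 CPM with GapmeR2 and 5600 to 6460 CPM in controls, and VPREB1 was at 0 in all 8 samples. CPM is the count of a gene scaled to the size of its library after TMM normalisation. The T cell markers CD3D, CD3G and CD2 and the erythroid markers HBA1, HBB and ALAS2 were at 0 throughout. Of the 8 T cell markers TRAC alone was tested (log2 fold change 0.38, edgeR adjusted p = 0.004), at 13.2 to 23.9 CPM with GapmeR2 and 7.62 to 18.1 CPM in controls. That call was lost without the block and without GapmeR2 replicate 2.

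The level of the target was read first. The study had picked GapmeR2 by RT-qPCR because it lowered this lncRNA in REH cells, so the values below describe a knockdown already known. The level of LINC02891 was 5.06, 5.65 and 3.41 CPM in replicates 1 to 3 of GapmeR2. It was 18.3, 22.4 and 19.7 CPM with NTC and 19.1 and 24.4 CPM in medium. The groups did not overlap. The mean was 4.71 ± 1.16 CPM (SD, n = 3) against 20.8 ± 2.55 CPM (SD, n = 5), which left 22.9% of the control level (log2 fold change −2.13, SE 0.109, edgeR quasi-likelihood adjusted p = 1.24e-15). A two-sided exact permutation test with 56 arrangements, which left the replicate number out, gave p = 0.0357, the smallest it can give. With GapmeR1 the target was at 5.83 ± 0.76 CPM (n = 3), and the difference between both GapmeRs did not pass the threshold (log2 −0.33, edgeR adjusted p = 0.0662). The 16 samples of the other GapmeRs had between 14 and 23.0 CPM.

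In all, 3364 of 15050 genes tested (22.4%) were changed with GapmeR2 at an adjusted p-value under 0.05, 1802 higher (12%) and 1562 lower (10.4%). These calls came from a fit with the replicate number as a block. Without the block 996 genes were changed, of which 995 were among the 3364. Most changes were small. The median absolute log2 fold change was 0.255 among the higher genes and 0.351 among the lower genes, and 69 higher and 174 lower genes passed an absolute log2 fold change of 1. When fold changes were tested against 1.5-fold instead of against no change, 44 genes were higher and 122 lower. All 3 GapmeR2 samples lay above every control for 1246 genes (8.28% of those tested) and below every control for 1166 (7.75%). lncRNAs made up 56 of the higher genes (3.11%) and 191 of the lower genes (12.2%), beside 12.5% of all genes tested. The count without the replicate 3 libraries was 2702, with 1325 higher and 1377 lower.

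**Figure D1:**
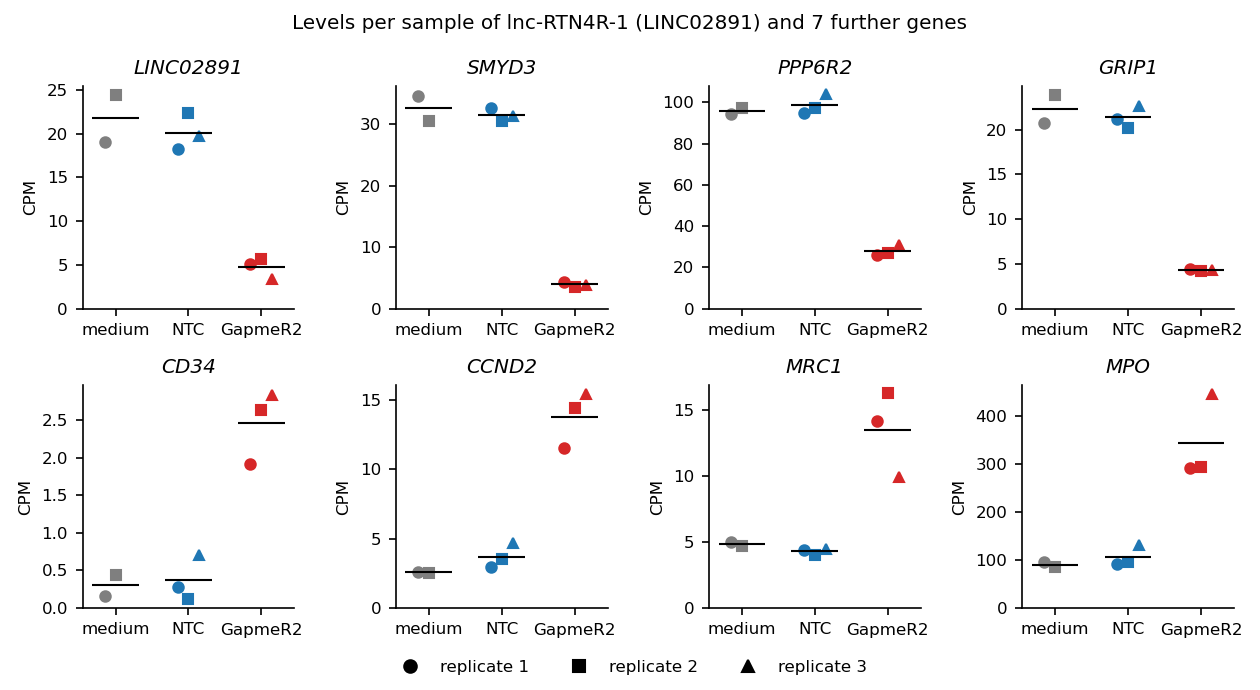
CPM (linear axis from 0) of LINC02891 and 7 of the genes named in the text, in each medium, NTC and GapmeR2 sample. Points are samples, with the replicate number as symbol, and lines are group means. The 3 GapmeR2 samples lie below all 5 controls in the upper row and above them in the lower row.

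Among genes with a mean of at least 1 CPM and no overlap between groups, the 12 lowest by log2 fold change were DLGAP2, ADAMTS18, SMYD3, NRXN3, BALR6, GRIP1, CHL1, LINC02891, WWOX, AFG3L1P, NCALD and LINC00598. LINC02891, BALR6 and AFG3L1P span 6.19 to 29.6 kb of the genome and the other genes 187 to 1700 kb, beside a median of 25.9 kb over all genes tested. SMYD3, a lysine methyltransferase, was at 4.36, 3.52 and 3.93 CPM in replicates 1 to 3 of GapmeR2. It was at 32.7, 30.6 and 31.3 CPM with NTC and 34.7 and 30.6 CPM in medium. The SMYD3 samples of GapmeR2 were thus 8.15-fold below the controls (log2 fold change −3.03, SE 0.0949, edgeR adjusted p = 7.61e-21). DLGAP2, a scaffold protein of the postsynaptic density, had 0.224 to 0.698 CPM with GapmeR2 and 4.74 to 6.80 CPM in the controls, a log2 fold change of −3.73 (SE 0.244). ADAMTS18, a secreted metalloprotease, had 0.231 to 0.814 against 5.19 to 6.42 CPM (log2 fold change −3.42, SE 0.234). GRIP1, which binds glutamate receptors, had 4.19 to 4.48 against 20.2 to 23.9 CPM (log2 fold change −2.34, SE 0.104). In each of these 4 genes all GapmeR2 samples were far below the lowest control, close together for SMYD3 and GRIP1 and over 3-fold apart for DLGAP2 and ADAMTS18. NRXN3, a neurexin of the presynaptic membrane, fell by 2.63 on the log2 scale, and the cell adhesion gene CHL1 fell by 2.18. CHL1 varied with the replicate number: GapmeR2 gave 3.96, 2.07 and 6.30 CPM where NTC gave 20.5, 11.9 and 26.2 CPM. The lncRNA BALR6 fell by 2.35, NCALD, a neuronal calcium sensor, by 1.99, and LINC00598 by 1.99. AFG3L1P fell by 2.06, and as a pseudogene it may share reads with related genes, so its value is uncertain.

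At higher levels, the smallest p-values among the lowered genes belonged to SMYD3, PPP6R2, ASH2L and HS2ST1. PPP6R2, a regulatory subunit of protein phosphatase 6, was at 26.2, 27 and 30.9 CPM with GapmeR2 and at 94.4 to 104 CPM in the controls (log2 fold change −1.83, SE 0.0569, edgeR adjusted p = 7.61e-21). ASH2L, a core subunit of the complexes that methylate histone H3 at lysine 4, was at 22.7, 24.4 and 21.2 CPM against 69.7 to 85.9 CPM (log2 fold change −1.82, SE 0.0607). HS2ST1, a sulfotransferase of heparan sulfate, was at 43.2, 37.2 and 36.0 CPM against 102 to 119 CPM (log2 fold change −1.48, SE 0.0542). These genes kept to a narrow range within each group, with SDs of 0.42 to 3.86 CPM with GapmeR2.

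The genes that rose most included several that are known from haematopoietic progenitors and myeloid cells. The 12 highest by the same rule were CD34, P2RY14, CCND2, TBC1D10C, PTPRB, MPO, CSF1R, MRC1, TLL2, SLCO2B1, CACNA2D2 and A2M. MPO, the peroxidase of neutrophil granules, had the smallest p-value of all genes. Its level was 292, 295 and 447 CPM in replicates 1 to 3 of GapmeR2, 91.1, 95.1 and 131 CPM with NTC and 95.2 and 84.8 CPM in medium. Replicate 3 was the highest sample of both GapmeR2 and NTC, and the log2 fold change was 1.70 (SE 0.0487, edgeR adjusted p = 1.86e-21). CCND2, which encodes cyclin D2, rose from 2.52 to 4.69 CPM in controls to 11.5, 14.4 and 15.4 CPM (log2 fold change 2.02, SE 0.123). CD34, a surface protein of haematopoietic stem and progenitor cells, had the highest fold change of the 12. Its level was low in every sample, with 1.92, 2.63 and 2.83 CPM with GapmeR2 and 0.125 to 0.701 CPM in controls (log2 fold change 2.72, SE 0.294). P2RY14, a receptor for UDP-glucose, was at 7.85 to 11.1 against 1.26 to 3.40 CPM (log2 fold change 2.07, SE 0.166). MRC1, the mannose receptor of macrophages, was at 14.2, 16.3 and 9.94 against 4.05 to 4.98 CPM (log2 fold change 1.59, SE 0.118). CSF1R, the receptor for macrophage colony-stimulating factor, was at 2.04 to 2.60 against 0.339 to 1.04 CPM (log2 fold change 1.64, SE 0.239). TBC1D10C, an inhibitor of calcineurin and Ras signalling, rose by 1.89 on the log2 scale, and the receptor phosphatase PTPRB by 1.83. TLL2, SLCO2B1, CACNA2D2 and A2M, which encode a metalloprotease, an organic anion transporter, a calcium channel subunit and a protease inhibitor, rose by 1.54, 1.39, 1.34 and 1.30.

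Of the 8 myeloid markers, 3 were tested and 2, MPO and CSF1R, were higher, while ITGAM had a log2 fold change of −0.13 and did not pass the test. The summed level of all 8 was 299 to 456 CPM with GapmeR2 and 89.8 to 138 CPM in controls. Nearly all of this sum was MPO in every group, so it does not describe the other markers. ELANE and S100A8, which define granulocytes, were at 0 in all 8 samples. Whether more cells expressed these genes or each cell held more of their RNA cannot be told apart in bulk RNA.

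**Figure D2:**
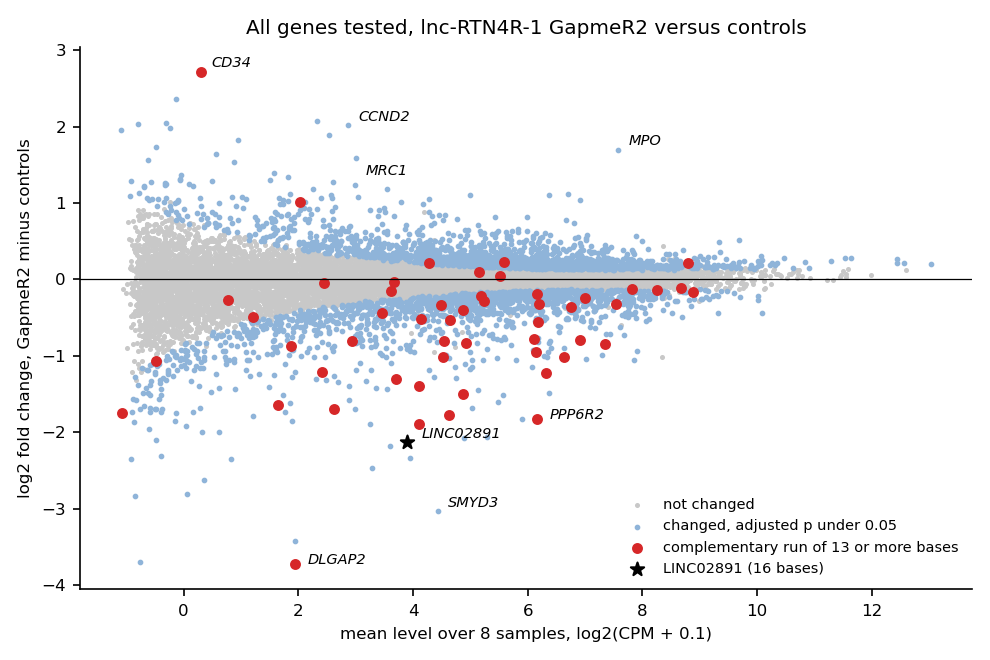
Log2 fold change (GapmeR2 minus controls) of the genes tested against their mean level over the 8 samples, log2(CPM + 0.1). Pale blue points are genes with an adjusted p-value under 0.05, red points the genes with a run of at least 13 bases complementary to GapmeR2, and the star is LINC02891. Most red points, 38 of 52, are changed and below 0, and CD34 lies far above it.

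The lowered genes were then set against the sequence of GapmeR2. For 14856 tested genes with annotated coordinates, lnc-RTN4R-1 left out, the whole genomic span was searched for the longest run complementary to GapmeR2. A run of at least 12 bases on the transcribed strand was found in 235 genes (1.58%), of at least 13 in 52 (0.35%) and of at least 14 in 9 (0.0606%). The share of genes lower with GapmeR2 was 4.04% where the run had at most 7 bases, 8.09% at 9 bases, 20.9% at 10 and 34.5% at 11. It was 42.1% of 183 genes at 12 bases, 69.8% of 43 genes at 13, and 88.9%, or 8 of 9 genes, at 14 or more. Long genes hold longer runs on both strands, so the strand that is not transcribed serves as comparison. There the share was 27.5% at 11 bases, 38.0% of 137 genes at 12, 20.6% of 34 genes at 13, and 2 of 3 genes at 14 or more. The strands thus lay closer together up to 12 bases than at 13. These shares are descriptions of one fit, genes of a class are not replicates, and no test was made of them. Of 11 genes whose best site differed from the full complement by 1 base, 10 were lower, against 5 of 14 for the opposite strand. ARID1B, a subunit of a chromatin remodelling complex, was among the 10 (log2 fold change −0.32), as was ACADM, a dehydrogenase of fatty acid oxidation (−0.48), while BANP (−0.12) did not pass the test.

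The 9 genes with a run of at least 14 bases are named here because of their sites. GLCE, an epimerase of heparan sulfate, fell most among those whose site is printed, from 23.4 ± 2.36 CPM (n = 5) to 6.45 ± 0.421 CPM (n = 3), a log2 fold change of −1.89 (SE 0.0983, edgeR adjusted p = 2.08e-15). RTTN, a protein of centrioles, was at 13.6 ± 1.3 against 38.7 ± 2.76 CPM (log2 fold change −1.50). ZFHX3-AS1, a lncRNA, was at 13.9 ± 0.651 against 28.4 ± 2.37 CPM (log2 fold change −1.02). KLF12, a repressor of transcription, was at 48.0 ± 0.943 against 82.0 ± 3.2 CPM (log2 fold change −0.78). TUT7, a uridylyltransferase, was at 21.5, 19.2 and 17.6 against 24.0 to 30.6 CPM (log2 fold change −0.53, SE 0.0805), and the ubiquitin ligase ITCH at 91.2 to 94.2 against 110 to 127 CPM (log2 fold change −0.36). The run of 15 bases in TUT7 thus went with a smaller change than the run of 14 in GLCE. TENM2 was barely detected, with 0.0582 to 0.280 against 0.268 to 0.647 CPM, and its groups overlapped (log2 fold change −1.75, SE 0.496, edgeR adjusted p = 0.0106). DLGAP2 also belongs to this class. The exception was DEGS1, a desaturase of ceramide synthesis, which was higher with GapmeR2 (52.5 ± 2.7 against 45.1 ± 2.42 CPM, log2 fold change 0.22).

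Of the 52 genes with a run of at least 13 bases, 38 were lower, 4 higher and 10 past the threshold in neither direction, and the site lay in an intron in 48 of them. PPP6R2 and CD34 share the same run of 13 bases and moved in opposite directions. The other genes of this class with that run were lower, such as CD47 (−0.85) and RALGPS2 (−1.22). The exception among them was ZNF264 (−0.03), which did not pass the test. Further lowered genes of this class were C14orf132, from 104 to 143 CPM in controls to 59.2, 62.0 and 60.3 CPM (log2 fold change −1.01), and EHMT1, a histone methyltransferase, from 133 to 155 CPM to 80.8, 85.7 and 80.4 CPM (log2 fold change −0.79). Both leukemia genes ETV6 and IKZF1, picked after their values were seen, held a run of 13 in an intron, with log2 fold changes of −0.34 and −0.14. ETV6 did not differ past the threshold from GapmeR1 (edgeR adjusted p = 0.141) or from the GapmeRs of the other lncRNAs (0.458). IKZF1 had overlapping groups. It differed from GapmeR1 (edgeR adjusted p = 8.54e-05) but not from the GapmeRs of the other lncRNAs (0.0638). The other higher genes of this class were SPATA48 (1.02) and NREP (0.22). Among the 50 most lowered genes with a mean of at least 1 CPM, 20 (40.0%) held a run of at least 12 on the transcribed strand and 2 (4.0%) on the opposite strand. Over all 13382 tested genes with that mean the shares were 1.69% and 1.23%. The 50 genes were also longer, with a median span of 276 kb against 28.3 kb, and longer genes hold longer runs. Among the 50 most raised genes 2 held one on the transcribed strand. SMYD3, with a run of 11, GRIP1 with 11 and AFG3L1P with 9 were among the strongly lowered genes with no longer run.

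The same genes gave other values with the other GapmeR. With GapmeR1 against the same controls, 0 of the 9 genes with a run of at least 14 bases for GapmeR2 and 3 of the 43 with a run of 13 were lower by edgeR, where 3.42% of all genes tested were lower. At an unadjusted p under 0.05, 1 of those 9 was lower. When GapmeR2 was tested directly against GapmeR1, 7 of 8 and 30 of 42 were lower, where 15.6% of all genes were.

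**Figure D3:**
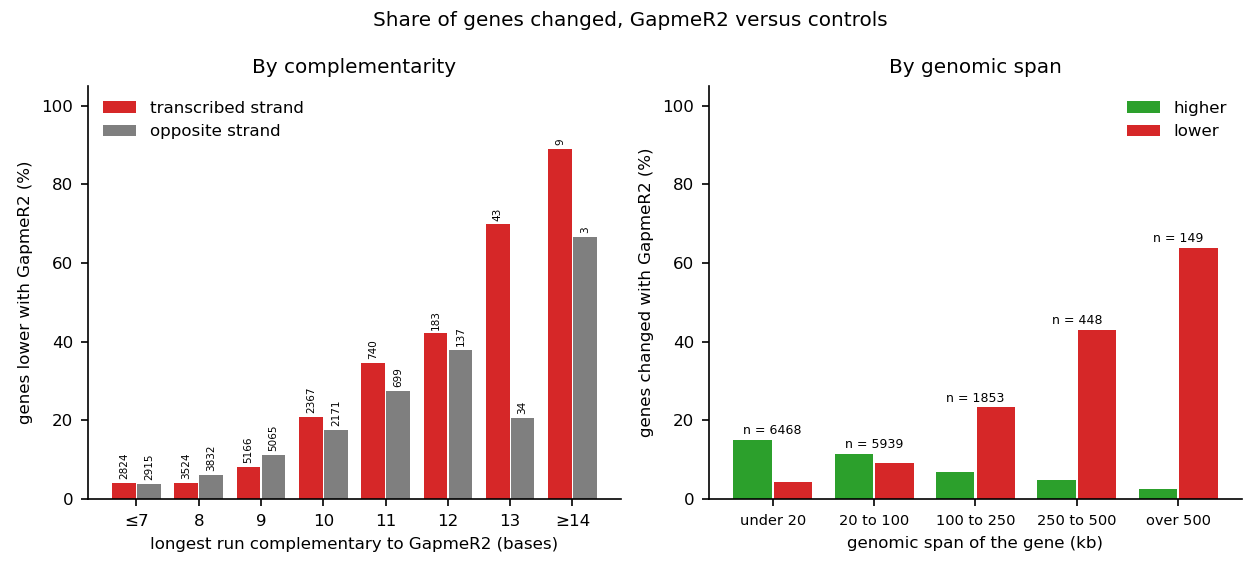
Left, percent of genes lower with GapmeR2 by the longest run complementary to it in the genomic span of the gene, for the transcribed (red) and the opposite (grey) strand. Right, percent higher (green) and lower (red) by genomic span. Small figures give the genes per bar. The strands separate at 13 bases, where the bars stand at 69.8% and 20.6%.

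Lowered genes were long. The median genomic span was 86.6 kb among the lower genes, 17.6 kb among the higher genes and 25.9 kb among all tested. In genes under 20 kb 15% were higher and 4.39% lower. The share lower rose to 9.14% at 20 to 100 kb, 23.3% at 100 to 250 kb, 42.9% at 250 to 500 kb and 63.8% of 149 genes over 500 kb, of which 2.68% were higher. Span and run are linked, so the run was read within classes of span. Between 20 and 100 kb, 34.2% of 73 genes with a run of at least 12 were lower against 8.83% of the others, and for the opposite strand the values were 6.12% and 9.17%. Between 100 and 250 kb they were 51.7% and 21.9%, with 42.9% and 22.7% for the opposite strand. Over 500 kb, 66.7% of 27 genes with such a run and 63.1% of the other 122 were lower, so long genes were lower there with or without a run. The size of change differed, with a median log2 fold change of −0.864 with such a run and −0.411 without. For the opposite strand these medians were −0.414 and −0.457. The share over 500 kb was 43.6% without the block and 54.6% without the replicate 3 libraries. Reads that matched no annotated feature on the strand used made up 12.1% to 14.9% of the GapmeR2 libraries and 13.3% to 15.9% of the controls. This class is not limited to reads between genes, and can hold reads from introns. The part of these reads in the result was not tested.

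WWOX, an oxidoreductase gene at a common fragile site, was lowered with more than one GapmeR. It was at 10.8, 9.11 and 9.65 CPM with GapmeR2 and 37.9 to 46.9 CPM in controls (log2 fold change −2.07, SE 0.0789). With GapmeR1 it was at 9.38 ± 0.255 CPM, and GapmeR2 and GapmeR1 did not differ past the threshold (log2 0.05, edgeR adjusted p = 0.731). It was also at 12.7 ± 2.81 CPM with lnc-NKX2-3-1 GapmeR1 (n = 2) and at 8.92 ± 1.8 CPM with lnc-ASTN1-1 GapmeR1 (n = 3). TBC1D10C was high with GapmeR1 too, at 11.2 ± 2.68 CPM, and reached 17.0 ± 2.39 CPM with lnc-NKX2-3-1 GapmeR1.

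PPP6R2 showed the opposite. Its mean was 93.2 to 98.1 CPM in every other group given a targeting GapmeR and 28.0 ± 2.51 CPM with GapmeR2, and GapmeR2 differed from the 16 samples of the other lncRNAs by a log2 fold change of −1.78 (edgeR adjusted p = 5.6e-16). CCND2 was at 3.11 ± 0.691 CPM with GapmeR1 and 2.83 to 6.32 CPM in those 16 samples, all below the 3 GapmeR2 samples (log2 difference 1.75, edgeR adjusted p = 4.19e-11). MPO was at 93.6 ± 19.2 CPM with GapmeR1. Its highest value outside GapmeR2 was 197 CPM, with lnc-NKX2-3-1 GapmeR1, and the difference from the 16 samples was 1.53 (edgeR adjusted p = 7.03e-05). SMYD3 had 12.6 to 32.8 CPM in those samples, also above all 3 samples of GapmeR2. In this comparison 1992 of 15799 genes tested (12.6%) differed.

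**Figure D4:**
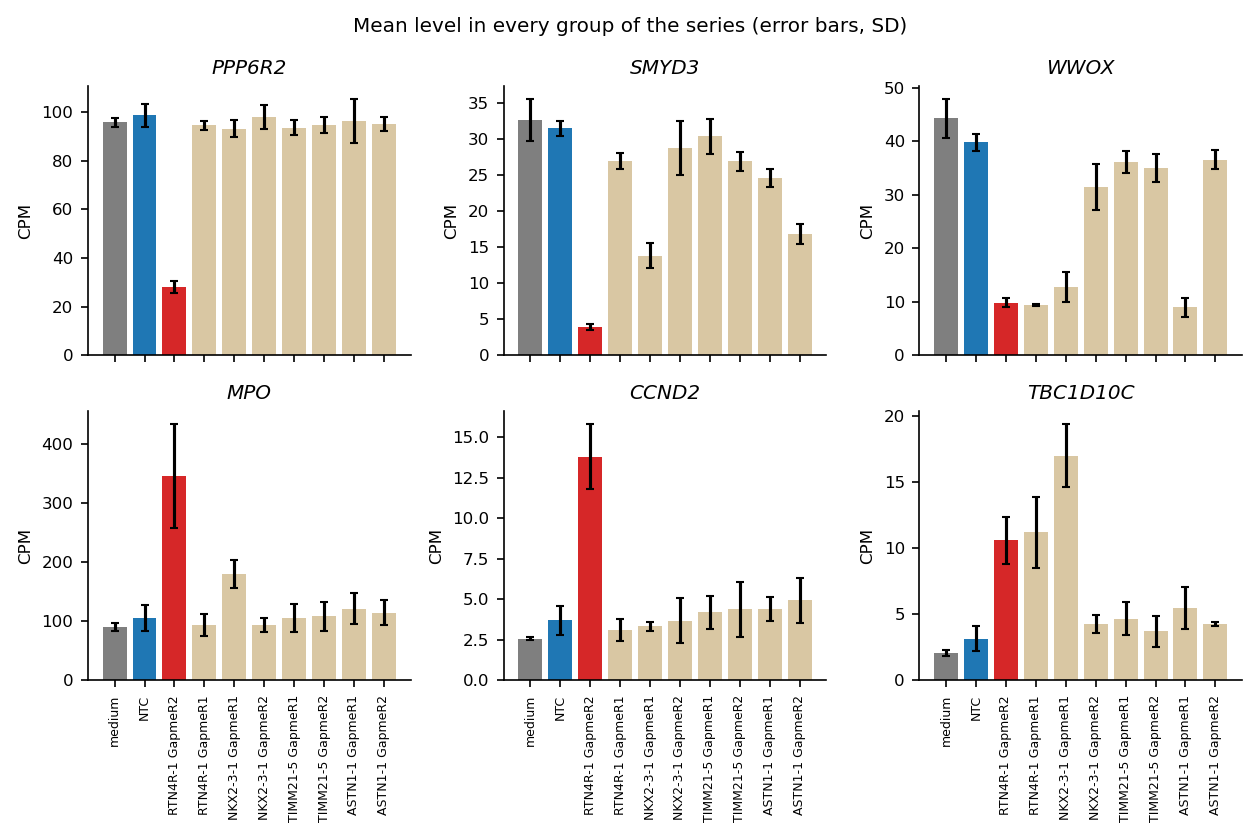
Mean CPM of 6 genes in the 10 groups of the series, with SD as error bars (2 or 3 samples per group, linear axis from 0). Grey is medium, blue NTC, red GapmeR2, and tan the other GapmeRs. The genes were picked after their values were seen. PPP6R2, SMYD3, MPO and CCND2 stand apart with GapmeR2, while WWOX is low and TBC1D10C high in other groups too. Single samples of other GapmeRs also lay below the controls for SMYD3 and above them for MPO and CCND2.

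Against GapmeR1, which lowers the same lncRNA, 4609 of 14904 genes differed (30.9%), 2280 higher (15.3%) and 2329 lower (15.6%) with GapmeR2. Without the block 882 differed. Some genes were much lower with GapmeR1 than with GapmeR2. RBM28, a protein of ribosome biogenesis, was at 80.4, 83.6 and 78.4 CPM with GapmeR2, 78.1 to 88.7 CPM in controls and 20.8 ± 1.72 CPM with GapmeR1 (log2 difference 1.94, edgeR adjusted p = 4.16e-18). ZEB1, a zinc finger repressor, was at 28.4 ± 0.409 CPM with GapmeR2, 37.1 ± 2.57 CPM in controls and 3.46 ± 0.584 CPM with GapmeR1 (log2 difference 3.03). ZEB1 was also lower with GapmeR2 than in controls (log2 fold change −0.40, edgeR adjusted p = 1.73e-05). PTPRK, a receptor phosphatase that the study named, was at 273, 274 and 219 CPM with GapmeR2, 261 to 359 CPM in controls and 112 ± 10.8 CPM with GapmeR1. PTPRK was slightly lower than in controls (log2 fold change −0.26, edgeR adjusted p = 9.6e-04), with overlapping groups, and the call was lost without the block (adjusted p = 0.106). GBA3, a glucosylceramidase, gave −0.25 and AK7, an adenylate kinase, −0.15, of which GBA3 passed the threshold and AK7 did not (edgeR adjusted p = 0.0643).

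Of 53 annotated genes within 500 kb of lnc-RTN4R-1, 22 were tested, 4 were higher and 1 lower, a share of 22.7% against 22.4% over all genes. RTN4R itself was at 66.3, 80.7 and 77.7 CPM with GapmeR2, 58.1, 71.9 and 66.0 CPM with NTC and 62.1 and 68.0 CPM in medium. The groups overlapped, while each GapmeR2 sample was above the controls of its own replicate number (log2 fold change 0.18, SE 0.0523, edgeR adjusted p = 0.0122). DGCR8, a subunit of the microRNA processor (0.21), ZDHHC8, a palmitoyltransferase (0.20), and TRMT2A, a tRNA methyltransferase (0.16), were also higher. RANBP1 (0.11), LINC00896 (−0.27) and CCDC188 (−0.04) did not pass the test. Of these 7 neighbours within 100 kb, 3 passed by DESeq2 with the block and none by edgeR without it (3 at an unadjusted p under 0.05), where the adjusted p-values of the 4 higher genes were 0.2 to 0.364. The gene that was lower was USP41 (log2 fold change −1.10, edgeR adjusted p = 0.0328).

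In the lists of MHC class II genes, interferon-stimulated genes and nucleic acid sensors, every gene that passed the test was higher, while the NF-kB list had calls in both directions. MHC class II genes, which present peptides to helper T cells, were higher in 11 of 13, with none lower and a median log2 fold change of 0.256 against 0.00839 over all genes tested. The share of genes higher in the whole fit was 12%, and in genes under 20 kb, to which 11 of the 13 belong, 15%. All 3 GapmeR2 samples lay above every control in 11 of the 13, beside 8.28% of all genes tested. HLA-DRB1 was at 550, 581 and 622 CPM with GapmeR2, 488, 462 and 442 CPM with NTC and 494 and 469 CPM in medium (log2 fold change 0.30, SE 0.0528, edgeR adjusted p = 7.88e-05). HLA-DQB1 was at 216, 228 and 277 against 179 to 197 CPM (log2 fold change 0.30), HLA-DMB at 184 to 202 against 142 to 167 CPM (0.25), and HLA-DRB5 at 132 to 148 against 102 to 119 CPM (0.30). HLA-DRB1 and HLA-DRB5 are near-identical and their reads may be split unevenly. CIITA, the activator of these genes, had a log2 fold change of 0.08 and did not pass the test. Without the block 5 of the 13 were higher, with NTC as the only control 9, and against GapmeR1 13. Over all genes tested these counts were 416 of 15050, 1376 of 14802 and 2280 of 14904. In this list and the interferon, nucleic acid sensor and p53 lists described next, the edgeR fit of the 8 samples with the block called 0 genes lower. The count was also 0 at an unadjusted p under 0.05 in that fit, and by DESeq2 with the block. Over all genes tested 10.4% were lower by edgeR, with 4.39% under 20 kb and 9.14% at 20 to 100 kb. A count of 0 in lists this short is thus little evidence of a direction. In one edgeR fit of all samples with the block, 2 p53 targets and 1 interferon-stimulated gene were lower at an unadjusted p under 0.05. The p53 list had 1 gene lower by edgeR with medium as the only control and 1 with no filter on low counts.

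Interferon-stimulated genes were higher in 12 of 25 (48.0%, beside 12% of all genes tested), with none lower and a median log2 fold change of 0.249. Their summed level was 778 to 843 CPM with GapmeR2 and 674 to 718 CPM in controls. OAS3, an activator of RNase L, was at 44.7, 49.4 and 44.9 CPM against 25.2 to 31.4 CPM (log2 fold change 0.71, SE 0.0637, edgeR adjusted p = 6.03e-10), and GapmeR2 also exceeded GapmeR1 (0.69) and the GapmeRs of the other lncRNAs (0.69). BST2, or tetherin, was at 77.8 to 84.4 against 51.5 to 64.8 CPM (log2 fold change 0.48), and ISG15, a ubiquitin-like modifier, at 20.8 to 25.9 against 14.7 to 19.3 CPM (0.48). IFITM1, which restricts viral entry, was at 5.35 to 8.03 against 3.05 to 3.72 CPM (0.86), but with GapmeR1 it was at 5.36 ± 0.0724 CPM and did not differ from GapmeR2 past the threshold (edgeR adjusted p = 0.156). MX1 and RSAD2, also of this list, had log2 fold changes of 0.09 and −0.10 and did not pass. Without the block 6 of 25 were higher, beside 416 of all 15050 genes tested. Sensors and adaptors of foreign nucleic acids were higher in 7 of 18 (38.9%, beside the same 12%), with none lower and a median of 0.0914. STING1, the adaptor of DNA sensing, had 12.3, 11.5 and 21.7 CPM against 5.37 to 11.7 CPM, so that its groups overlapped (log2 fold change 0.72, adjusted p = 6.93e-05 by edgeR, 0.0773 without the block). MYD88, the adaptor of Toll-like receptors, had 49.2 to 53.6 against 39.7 to 43.3 CPM (log2 fold change 0.33), and UNC93B1 and IRAK1 gave 0.28 and 0.16. The sensors TLR7 (0.03) and IFIH1 (−0.01) did not pass the test, and without the block 1 of 18 passed.

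Targets of p53 were higher in 8 of 19 (42.1%, beside 12% of all genes tested), with none lower and a median of 0.165. CDKN1A, the inhibitor of cyclin-dependent kinases p21, was at 141, 143 and 160 CPM with GapmeR2 and 96.3 to 119 CPM in controls (log2 fold change 0.44, SE 0.0519, edgeR adjusted p = 1.13e-07). ZMAT3 (0.40) and the death receptor TNFRSF10B (0.48) were also higher, while MDM2, FAS and BTG2 had −0.06, −0.05 and 0.05 and did not pass the test. TNFRSF10B was at 43.1, 42.6 and 64.9 CPM against 31.6, 29.9 and 56.8 CPM with NTC, and the call was lost without the block (adjusted p = 0.327). Without the block 3 of the 19 were higher, beside 416 of all 15050 genes tested. In the BCL2 family 4 of 14 were higher and 2 lower (42.9%, beside 22.4% of all genes tested), and without the block 1 and 2. The pro-death members BAX (0.30) and BID (0.25) were higher, and BCL2, which protects cells, was lower, at 288 to 294 against 327 to 363 CPM (log2 fold change −0.24). HRK, a pro-death member, was lower too, at 5.93, 6.15 and 8.79 against 11.0 to 14.8 CPM (log2 fold change −0.99, SE 0.109). The members of this family thus moved in both directions, also within the pro-death group.

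**Figure D5:**
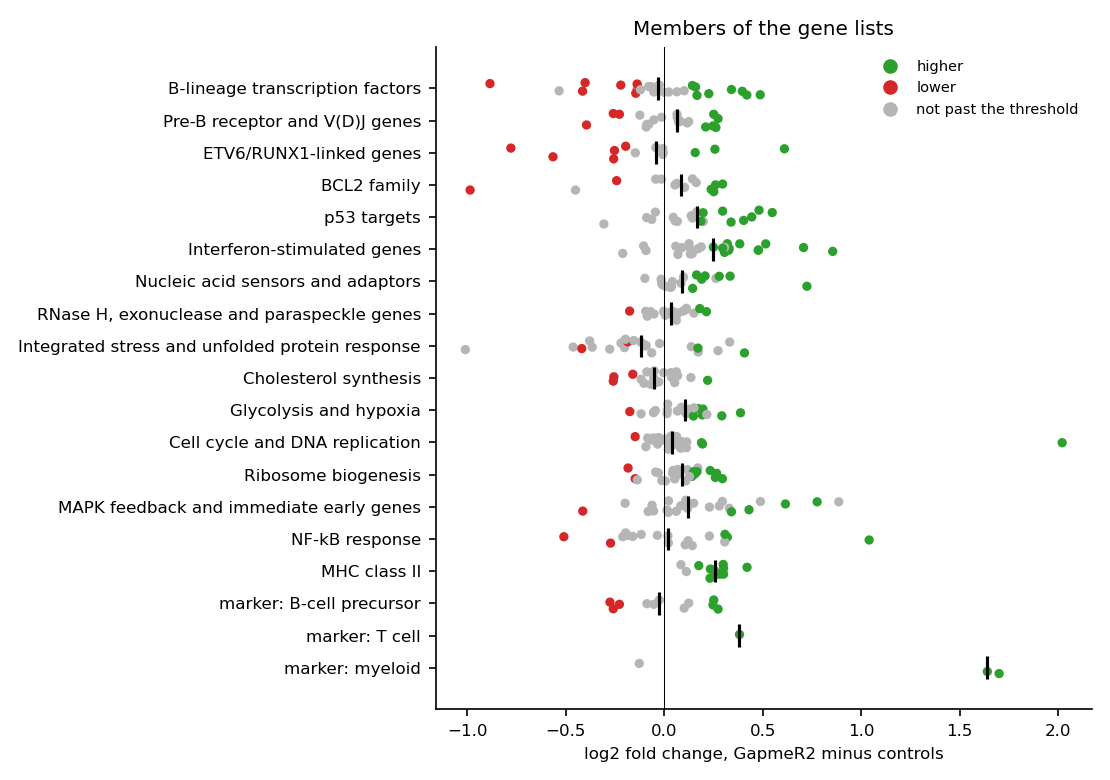
Log2 fold change (GapmeR2 minus controls) of each tested member of the gene lists. Green is higher, red lower and grey not past the threshold, black bars are list medians, and points are spread vertically for display. MHC class II, interferon-stimulated genes, nucleic acid sensors and p53 targets have green and grey points only.

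Genes of B-cell identity moved both ways. Of 27 B-lineage transcription factors, 8 were higher and 7 lower (55.6% in all, beside 22.4% of all genes tested), with a median of −0.0323. Without the block 2 were higher and 3 lower, and without GapmeR2 replicate 1 the counts were 4 and 5. MEF2C was at 794, 888 and 647 CPM with GapmeR2, 553, 577 and 479 CPM with NTC and 560 and 653 CPM in medium (log2 fold change 0.49, SE 0.0505, edgeR adjusted p = 1.13e-08). Its groups overlapped, while each GapmeR2 sample was above the controls of its number. IRF8 (0.42) and SPI1 (0.34), factors of B and myeloid cells, were also higher. TCF4, an E protein, was lower at 125, 123 and 103 against 138 to 175 CPM (log2 fold change −0.41), and SPIB, a relative of SPI1, at 2.85 to 3.52 against 5.18 to 6.54 CPM (−0.89). PAX5 (0.10) and EBF1 (−0.03), which set B-cell identity, and RUNX1 (−0.05) did not pass the test. Of 20 genes of the pre-B receptor and V(D)J recombination, 5 were higher and 3 lower (40.0%), and without the block 0 and 2. VPREB3 (−0.40) and the surrogate light chain gene IGLL1 (−0.26) were lower, and the adaptor BLNK (0.26) was higher. Without the block, VPREB3 and IGLL1 passed and BLNK did not. Among the precursor markers MME, or CD10, was lower (−0.28) and CD24 higher (0.25).

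Of 13 genes linked to the ETV6/RUNX1 subtype, 3 were higher and 5 lower (61.5%, beside 22.4% of all genes tested), and without the block 1 and 2. The list holds PTPRK, GBA3 and AK7, which the study named from these samples, so their direction is not independent evidence. ARHGEF4, a guanine nucleotide exchange factor, was at 31.1, 31.5 and 40.5 against 51.8 to 63.3 CPM (log2 fold change −0.78, SE 0.0607), and the chloride channel protein CLIC5 at 45.1 to 49.2 against 63.9 to 73.5 CPM (−0.57). NETO1, an auxiliary subunit of glutamate receptors, was at 42.5 to 51.2 against 29.5 to 33.9 CPM (0.61), and BIRC7, an inhibitor of apoptosis, gave 0.26. The groups of ARHGEF4, CLIC5 and NETO1 did not overlap, and those of BIRC7 did. EPOR, DSC3 and PCLO did not pass the test, with −0.01 each.

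The metabolic and stress lists held calls in both directions. The share called was 12.5% in the cell cycle, 15% in the RNase H, 17.4% in the stress, 20.0% in the cholesterol and 21.7% in the MAPK list, all under the 22.4% over all genes tested. It was 27.8% in the NF-kB, 33.3% in the glycolysis and 41.7% in the ribosome biogenesis list. Of 32 cell cycle and replication genes 3 were higher and 1 lower, and CCND2 was the one with a large change. MCM4 and AURKB gave 0.19 each and BUB1B −0.15, with overlapping groups. In ribosome biogenesis 8 of 24 were higher and 2 lower, with UBTF (0.27), BOP1 (0.26), NOP56 (0.23) and NOP16 (0.30) leading, and 1 passed without the block. In glycolysis and hypoxia 6 of 21 were higher and 1 lower, led by PFKL, at 221, 233 and 267 against 168 to 198 CPM (log2 fold change 0.39), and TPI1 (0.29), and 1 passed without the block. Cholesterol synthesis had 1 of 20 higher and 3 lower, with HMGCS1 and MSMO1 at −0.26 each and INSIG1 at −0.16. None of these 20 passed by edgeR without the block, where 4 had an unadjusted p under 0.05, while DESeq2 with the block called 1 higher and 3 lower. In the integrated stress and unfolded protein responses 2 of 23 were higher and 2 lower. These counts depended on the controls and on single libraries, with 7 and 10 against medium alone, 1 and 6 against NTC alone, 4 and 8 without GapmeR2 replicate 3, 4 and 7 without NTC replicate 3, 3 and 5 without medium replicate 2 and 0 and 2 without GapmeR2 replicate 2. SLC7A11, the cystine transporter, was at 106, 73.9 and 82.1 against 113 to 118 CPM (log2 fold change −0.42), and the chaperone gene SDF2L1 gave 0.41 with overlapping groups. Among MAPK feedback and immediate early genes 4 of 23 were higher, including JUND (0.61), IER2 (0.43) and PHLDA1 (0.78), and DUSP10 was lower (−0.41). The NF-kB list had 3 of 18 higher, including CXCL8 (1.04) and TNFAIP2 (0.32), and 2 lower, ICAM1 (−0.51) and TNFAIP3 (−0.27). None of the 18 passed by edgeR without the block, where 3 had an unadjusted p under 0.05, while DESeq2 with the block called 2 higher and 2 lower. CXCL8 was at 6.05, 2.68 and 6.07 CPM with GapmeR2, against 2.20, 1.12 and 5.34 CPM with NTC. The NTC samples alone thus spanned 1.12 to 5.34 CPM. Of 20 genes of RNase H, exonucleases and paraspeckles, which bear on how GapmeRs act and are bound, HSP90AA1 (0.21) and TCP1 (0.18) were higher and XRN1 (−0.18) lower. None of the 20 passed by edgeR without the block, where 1 had an unadjusted p under 0.05, and DESeq2 with the block called 2 higher and 0 lower (1 lower at an unadjusted p).

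Leaving out 1 library also moved the number of genes called by over 1.5 times in other lists. The interferon list fell from 12 calls to 7 without GapmeR2 replicate 2. The p53 list fell from 8 calls to 4 without GapmeR2 replicate 1, and to 5 without GapmeR2 replicate 2, medium replicate 1 or NTC replicate 1. The nucleic acid sensors fell from 7 to 3 without GapmeR2 replicate 1, and to 4 without replicate 3 of GapmeR2 or of NTC. Ribosome biogenesis fell from 10 to 5 without GapmeR2 replicate 1 or 2, and to 6 without NTC replicate 1 or 2. Glycolysis fell from 7 to 2 without GapmeR2 replicate 3 and to 3 without NTC replicate 3, and the cell cycle list from 4 to 2 without GapmeR2 replicate 2. The MAPK list went from 5 to 2 without GapmeR2 replicate 1 and to 10 without NTC replicate 2, and the cholesterol list from 4 to 2 without GapmeR2 replicate 1 and to 7 without GapmeR2 replicate 3. The genes within 500 kb of lnc-RTN4R-1 went from 5 calls to 2 without GapmeR2 replicate 1 or 3, and to 3 without GapmeR2 replicate 2, NTC replicate 1 or NTC replicate 3. The 11 calls among the MHC class II genes ranged from 9 to 11.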

How the data were processed

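The authors aligned reads to hg38 with STAR (per the labels) and deposited raw counts of uniquely mapped reads per gene, with no normalisation, in 3 columns for each sample. The labels describe ribodepleted, stranded total RNA, whereas the methods describe poly-A selection. The annotation release was not given in the sources used here. Column 4, the strand with 95.2% to 95.3% of the counts of both strands, was used. Rows that name no gene (23.5% to 26.0% of reads) stayed out of library sizes and tests. Of 60619 identifiers, 56434 matched GENCODE release 44, which gave symbols, spans and exons. The GapmeR2 sequence came from the study's list of GapmeRs.

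Counts of the 8 samples were fitted with edgeR 4.0.16 in R 4.3.3 (TMM, filterByExpr with a minimum count of 10 and a minimum total of 15, robust quasi-likelihood F test) with the replicate number as a block, which left 4 residual degrees of freedom. P-values were adjusted by Benjamini-Hochberg over all genes tested, with 0.05 as threshold. Displayed CPM used TMM sizes of all 27 samples. The methods state that replicates were done on different days. Deviations of same-numbered GapmeR2 and NTC samples correlated at 0.215, 0.289 and 0.415. With medium they correlated at 0.0809 and 0.231 in replicates 1 and 2. Pairs of GapmeR2 and control samples with different numbers ranged from −0.321 to 0.123, the highest being GapmeR2 replicate 3 with medium replicate 1. The numbers were taken to pair the samples, though the pairing was weak with medium replicate 1. On simulated counts with 14865 genes, 92% of log2 changes of 0.5 and 99% of 1 were recovered with the block, 2% and 70% without. Of the simulated calls with the block, 5.45% were false. The simulation gave all samples of a replicate number the same shift, so the gain from the block was built in. It also changed far fewer genes than were called here, so these values do not measure the false calls in the real data. Depth limits precision for genes of a few counts. P-values measure the spread between cultures of one line. A medium replicate 3 was not analysed here.

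The members, the 16 gene lists and the markers were chosen with earlier results of these data known. The text names lnc-RTN4R-1, tested genes within 100 kb, AK7, PTPRK and GBA3, the 12 largest changes each way with a mean of at least 1 CPM and no overlap, the 5 smallest p-values, up to 4 changed members per list by p, the 8 genes that pair best with GapmeR2, and SMYD3, ZEB1, RBM28, WWOX and TBC1D10C. Other names were added after values were seen. Alternatives were no block, DESeq2 1.42.0 (the study's tool), RLE, no filter, a minimum of 10 counts per sample, NTC or medium alone, one fit of all samples, unstranded counts, a test against 1.5-fold and each replicate left out. A fit of replicates 1 and 2 alone was added after the data were seen. Some genes of the lists are not reported here by name.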

Additional observations from a re-analysis of the deposited data

Results flagged for a closer look

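In 13 of the 110 named genes, NTC replicate 3 lay far from the other 4 controls by Dixon's criterion at 95%. Chance marks about 1 in 20 groups, and medium had no replicate 3 to compare with. NTC replicate 3 was the highest control for MPO (131 CPM), SLCO2B1 (2.64), BIRC7 (73.8), ZMAT3 (46.8), TNFRSF10B (56.8), SDF2L1 (19.3), PDIA4 (173) and TNFAIP2 (81.3). It was the lowest for NCALD (0.971 CPM), ASH2L (69.7), IGLL1 (258), TPI1 (124) and AURKB (61.0). MPO remained higher and ASH2L lower without replicate 3, with edgeR adjusted p-values of 1.33e-23 and 6.93e-22. GapmeR2 and GapmeR1, which target the same lncRNA, differed past the threshold in 86 of the named genes in the direct test.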

How the results depend on the processing

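The target stayed lower in every alternative run, with log2 fold changes of −2.26 to −1.99 when 1 sample was left out. Without the replicate block, 996 genes changed against controls (416 higher, 580 lower), 35 instead of 125 of 355 list members, and the share lower was 43.6% over 500 kb and 37.9% with a run of at least 12 bases, in place of 63.8% and 48.9%. Against GapmeR1 882 differed without it (327 and 555), and against the other lncRNAs 873 (418 and 455). Of the named genes 43 lost the call. DESeq2 gave 2341 genes, 51.7% over 500 kb, and 2147 against GapmeR1 (1036 and 1111). With no filter these shares were 33.2% and 32.1%. Medium alone gave 1200 higher genes and 54.4% over 500 kb, and replicates 1 and 2 alone 54.6%. The test against 1.5-fold called 166 (44 and 122). Leaving out 1 sample gave 2085 to 3210 changed (1068 to 1730 higher, 1017 to 1533 lower), fewest without GapmeR2 replicate 2, 90 to 123 list members, 50.3% to 63.9% over 500 kb and 41.6% to 50.2% with a run. It gave 2688 to 4653 against GapmeR1 (1225 to 2334 and 1452 to 2386), fewest without replicate 2 of GapmeR2 (2688) or GapmeR1 (2819), and 673 to 1476 against the other lncRNAs (267 to 852 and 399 to 624), fewest without GapmeR2 replicate 3 (673) or 2 (816). CCDC188, never called, changed sign without the block (0.0565) and with unstranded counts (0.180) and ranged from −0.140 to 0.0687 with 1 sample left out, and LINC00896 changed sign with unstranded counts (0.0433). The causes were not tested. The fit with the block has 4 residual degrees of freedom and 1 control for replicate 3. Of the 930 genes called with an absolute log2 fold change of 0.2 to 0.3, 119 were also called without the block.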
